A study of Mus musculus with 4 samples.

Results

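The proteasome is the protease complex that degrades ubiquitin-tagged proteins. Its 20S core is a barrel of alpha-subunit rings around beta-subunit rings, and the beta rings hold the proteolytic sites. The 19S cap binds the ends of the core, recognises ubiquitin and unfolds substrates with a ring of ATPases. In immune cells, and in other cells under interferon, Psmb8, Psmb9 and Psmb10 replace the catalytic subunits Psmb5, Psmb6 and Psmb7 to form the immunoproteasome, which favours peptides for MHC class I. The genes examined here are those with a single gene symbol in the array annotation that starts with Psm, then a letter from a to g and a digit. They comprised 85 of 20380 single-gene probe sets and 48 of 12393 genes.

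RNA was measured in R1 mouse embryonic stem (ES) cells, an established line, 67 h after lentiviral infection. In 2 samples the virus carried a short hairpin RNA (shRNA) targeting Brg1, the product of Smarca4 and an ATPase that drives SWI/SNF chromatin remodelling, and in the other 2 a control hairpin directed at GLUT4, a glucose transporter. Both groups therefore carried virus and a hairpin, and the 2 samples of a group are duplicate infections. Each sample was read on 1 Affymetrix array, and RNA only was measured, not protein or proteasome activity.

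Values are array signals on the authors' linear scale. Differences are knockdown minus control on the log2(signal + 20.01) scale, with standard errors (SE) from limma, and "fell" or "rose" marks a Benjamini-Hochberg adjusted p under 0.05 over all 7815 genes above the filter on the mean log2 signal. Of these, 729 rose and 398 fell, or 622 and 598 with each array centred on its median. Smarca4 read 652.1 and 621.5 on the knockdown arrays against 1186.6 and 1213.6 on the control arrays, a log2 difference of -0.89 ± 0.08 (SE; adjusted p = 0.000232). The 10 ES cell markers were all above the filter, and 9 of the 10 fibroblast markers were below it. Duplicate arrays differed with an SD of 0.22 (knockdown) and 0.20 (control) log2 units over the tested genes.

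Of the 48 genes, 47 passed the filter and Psmb8 did not. Psmb10, Psme1, Psma4, Psmb2 and Psmc6 fell, which is 10.6% of the 47 against 5.09% of all tested genes that fell. With no filter, or with no intensity trend, Psmb10 was the only 1 of them called. With quantile normalization Psmb10, Psme1 and Psmd10 were called. Of all tested genes, 109 of 12393 fell with no filter, 219 of 7815 with no intensity trend and 439 of 7821 with quantile normalization. No member rose (limma), against 9.33% of all tested genes. At an unadjusted p under 0.05, 9 members were lower and 0 higher, against 949 lower and 1497 higher of the 7815 tested genes. The groups did not overlap in 25 members. In 23 of these both knockdown arrays lay below both control arrays, 48.9% of the members against 25.9% of all tested genes. In the other 2, Psma8 and Psmf1, both knockdown arrays were the higher, against 34.3% of all tested genes. These counts depend on the scaling of the arrays. With quantile normalization 18 members were lower without overlap and 10 higher, against 28.4% and 31.7% of all tested genes. With the arrays scaled to the hybridisation spike-ins it was 1 lower and 32 higher, against 3.59% and 66.4%. The median difference of the 47 was -0.07, against 0.04 over all tested genes. Of the 47 differences, 36 were below 0, and 42 of the 47 genes did not pass the test. In these bulk samples, less RNA of a gene per cell and fewer cells that express it cannot be told apart.

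**Figure D1:**
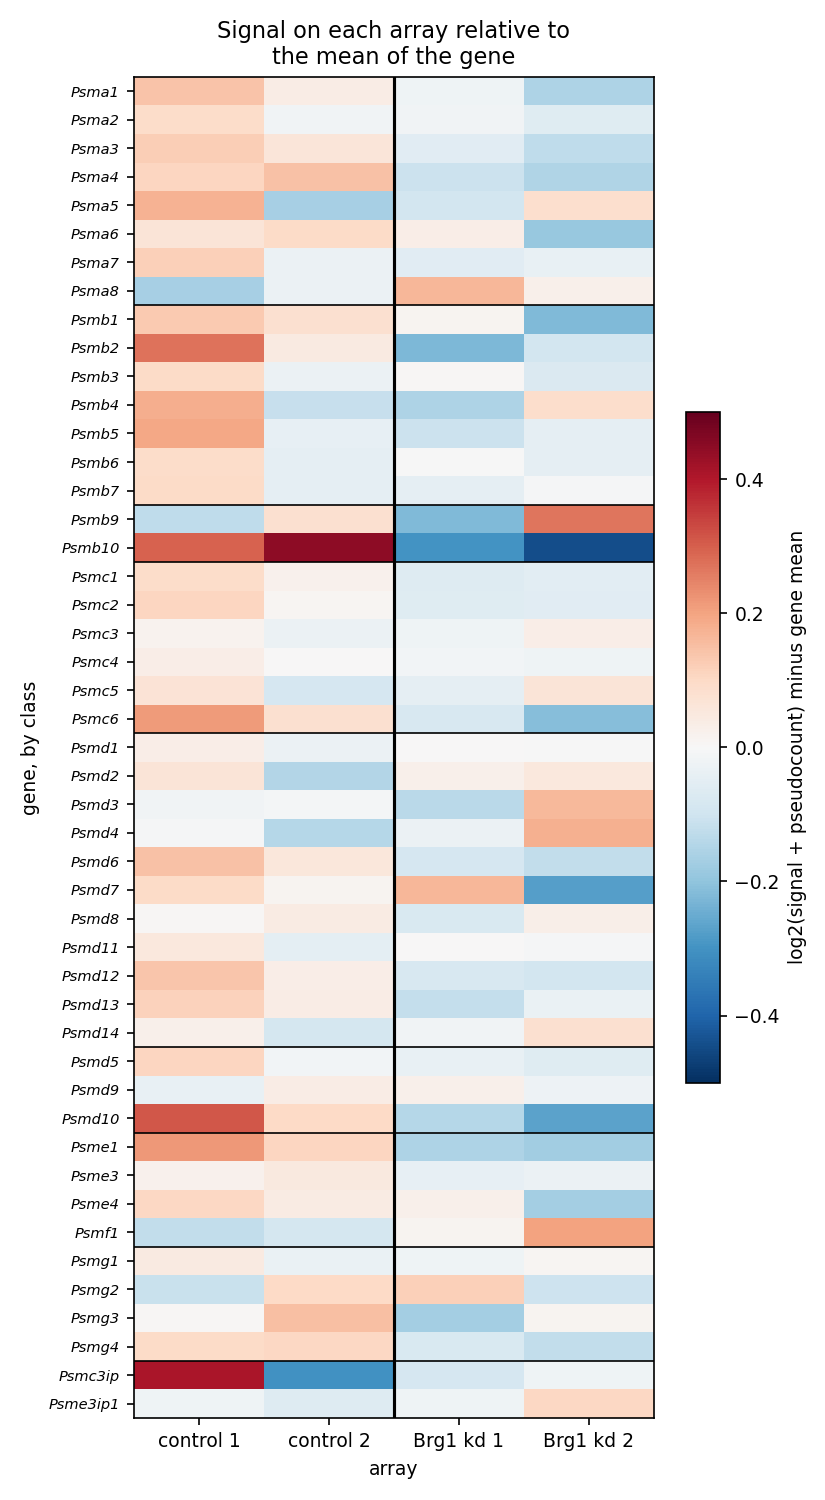
Each row is 1 of the 47 tested genes, grouped by class, and each column 1 array. The colour is the log2(signal + 20.01) minus the mean of that gene over the 4 arrays. Psmb10 shows the strongest contrast between the control and the knockdown arrays, and Psmc3ip differs most between the control arrays.

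Most of these genes are bright, and the median difference of the brightest genes was slightly below 0 on the deposited scale. Of the 47 members, 38 were in the top quartile of signal among the tested genes, where the median difference of all 1954 genes was -0.02, 53.7% were below 0 and 34.0% were lower without overlap. Of the 38 members there, 30 were below 0, with a median of -0.07, and 20 (52.6%) were lower without overlap. In this quartile 10.5% of the members fell, against 7.42% of all genes. Under quantile normalization, which gives the arrays one common distribution of signals, the medians in this quartile were 0.01 for all genes and -0.02 for the members. The part of brightness in the shift of the members was not tested.

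**Figure D2:**
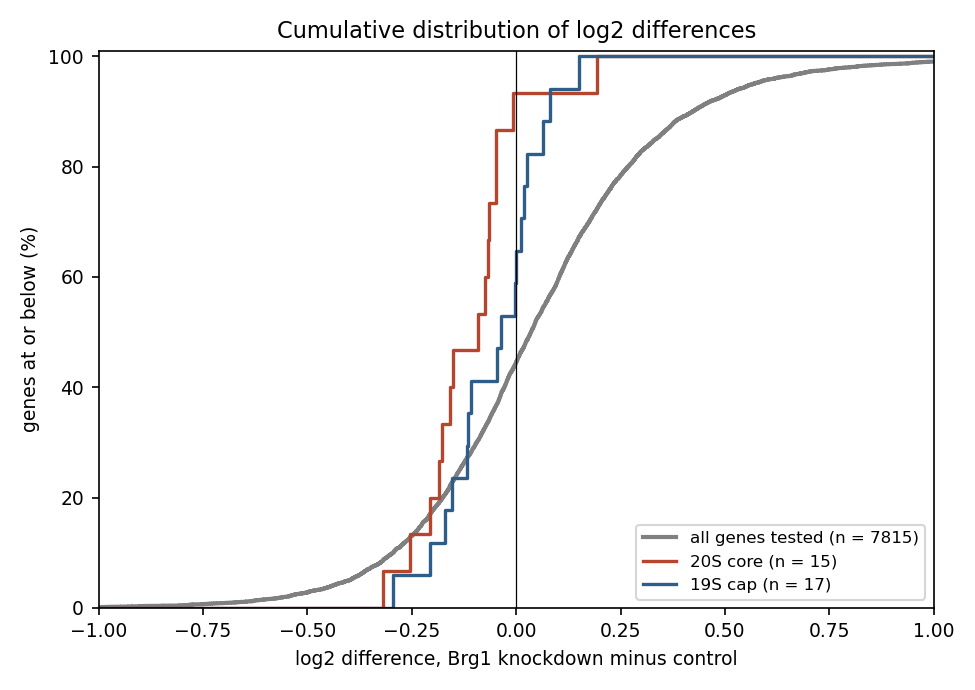
The horizontal axis is the log2 difference, knockdown minus control, and the vertical axis the percentage of genes at or below it, for all 7815 tested genes, the 15 genes of the 20S core and the 17 of the 19S cap. The core and cap curves are steeper than that of all genes, and 14 of the 15 core genes lie below 0; a few genes of the grey curve extend past the plotted range.

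Of the 5 genes that fell, 4 have an entry in the RefSeq promoter table of GRCm38.p6 and the fifth is Psmb2. Promoter windows ran from 250 bases before to 50 after a gene's start. They were searched on both strands for the core of the antioxidant response element, TGACNNNGC, to which the proteasome gene activator NFE2L1 binds, for the CCAAT box, and for the core of the interferon-stimulated response element, GAAA repeated after any 2 bases. The 250 bases before the start are shown for 3 of the 4 genes, since these are the windows of genes that fell, with a searched motif in capitals; where there are no capitals, none of these letters occurs in the stretch.

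Psmb10, chr8:105938393-105938642, minus strand: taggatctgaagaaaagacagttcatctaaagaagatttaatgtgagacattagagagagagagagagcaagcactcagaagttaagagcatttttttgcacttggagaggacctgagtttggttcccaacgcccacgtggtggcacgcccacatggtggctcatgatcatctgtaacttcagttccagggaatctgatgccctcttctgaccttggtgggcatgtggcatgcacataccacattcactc
Psma4, chr9:54950609-54950858, plus strand: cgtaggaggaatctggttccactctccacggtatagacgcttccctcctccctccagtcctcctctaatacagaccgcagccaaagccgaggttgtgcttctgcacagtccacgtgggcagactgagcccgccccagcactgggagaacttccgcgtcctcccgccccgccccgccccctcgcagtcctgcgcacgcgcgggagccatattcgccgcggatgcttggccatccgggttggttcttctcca
Psmc6, chr14:45329574-45329823, plus strand: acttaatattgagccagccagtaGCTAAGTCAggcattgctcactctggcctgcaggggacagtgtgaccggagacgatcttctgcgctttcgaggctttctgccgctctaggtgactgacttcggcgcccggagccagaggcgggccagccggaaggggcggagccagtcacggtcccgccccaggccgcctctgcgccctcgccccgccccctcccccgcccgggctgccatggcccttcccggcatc

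In Psmc6 the capitals mark the antioxidant response element core, read on the opposite strand. In Psme1 the only match was the interferon-stimulated response element core just after the start. It is also read on the opposite strand and is shown in capitals in a window of 30 bases.

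Psme1, chr14:55578493-55578522, plus strand: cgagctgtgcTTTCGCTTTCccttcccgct

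The 40 members with an entry have 43 promoters. The antioxidant response element core is in 6 of them (14.0%), against 12.4% of all 32851 promoters. The CCAAT box is in 15 (34.9%) against 37.4%, and the interferon-stimulated response element core in 5 (11.6%) against 3.44%. Besides Psme1, the interferon-stimulated response element core is in the promoters of Psmb3, Psmd4, Psmd9 and Psmg4, and none of those 4 genes passed the test. These are matches of letters in fixed windows, not binding sites.

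Among the immunoproteasome subunits, Psmb10 had the largest change of all members. This gene encodes the inducible counterpart of Psmb7. Its signal was 357.3 and 320.9 on the knockdown arrays against 549.9 and 612.4 on the control arrays. Both knockdown arrays were far below both control arrays. The means were 339 ± 25.7 and 581 ± 44.2 (SD, n = 2 each). The log2 difference was -0.74 ± 0.10 (SE; adjusted p = 0.00168), or 1.67-fold lower. Leaving out any 1 array gave differences from -0.82 to -0.67, all past the test. With the spike-in scaling the difference was -0.43 and the call was lost (adjusted p = 0.154). The gene has 1 probe set.

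Psmb8 and Psmb9 were dim. Psmb8 read 10 and 24.9 in the knockdown against 29.2 and 31.9 in the control, and was not tested, since its mean on the log2 scale was below the filter. The knockdown arrays were the lower for Psmb8, but they differed from each other by more than the nearer of them differed from the control. Psmb9 read 28.3 and 47.9 against 31.6 and 39.6, with overlapping groups and a log2 difference of 0.05 ± 0.20 (SE; adjusted p = 0.897). Without detection calls, expression of these genes at this signal cannot be stated.

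Psmb7 read 3077.7 and 3160.6 in the knockdown against 3390.2 and 3071.3 in the control, a log2 difference of -0.05 (95% interval -0.21 to 0.11). Psmb6 read 1853.7 and 1798.6 against 1982.1 and 1802.0, with a difference of -0.05 (-0.22 to 0.12). The groups overlapped in both. Psmb5 read 2264.2 and 2363.4 against 2793.0 and 2368.0, a difference of -0.15 (-0.34 to 0.04), with the nearest arrays of the groups almost equal. None of these genes passed the test (adjusted p = 0.68, 0.695 and 0.261). Whether Psmb10 and Psmb7 differ in their response was not tested.

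The PA28 activator is a ring that caps the core and is also induced by interferon. Psme1, its alpha subunit, read 563.4 and 554.7 in the knockdown against 734.0 and 679.1 in the control, with no overlap. It fell by 0.33 ± 0.09 on the log2 scale (SE; adjusted p = 0.0348), or 1.25-fold. It no longer passed when knockdown replicate 1 (adjusted p = 0.065), knockdown replicate 2 (0.117) or control replicate 1 (0.149) was left out, and with the spike-in scaling the difference was -0.01. One probe set is annotated to Psme2, the beta subunit of PA28, together with Psme2b, and so was not a member. It read 326.9 and 339.9 against 483.6 and 451.8, a difference of -0.46 ± 0.10 (SE; adjusted p = 0.0214 in the fit of single probe sets), and was looked at because of its name.

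The other regulators of the core did not pass the test. Psme3, the nuclear PA28 subunit, differed by -0.07 ± 0.09, while a second probe set gave 0.16 with the opposite order of the groups. Psme4, the activator PA200, gave -0.15 ± 0.09 with its brightest probe set and 0.03 and -0.06 with the others. Psmf1, a proline-rich inhibitor of the core, was higher on both knockdown arrays (197.3 and 227.4 against 177.7 and 182.8), a difference of 0.21 ± 0.11 (SE; adjusted p = 0.238). Its other 2 tested probe sets also had both knockdown arrays higher, at 0.27 each.

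**Figure D3:**
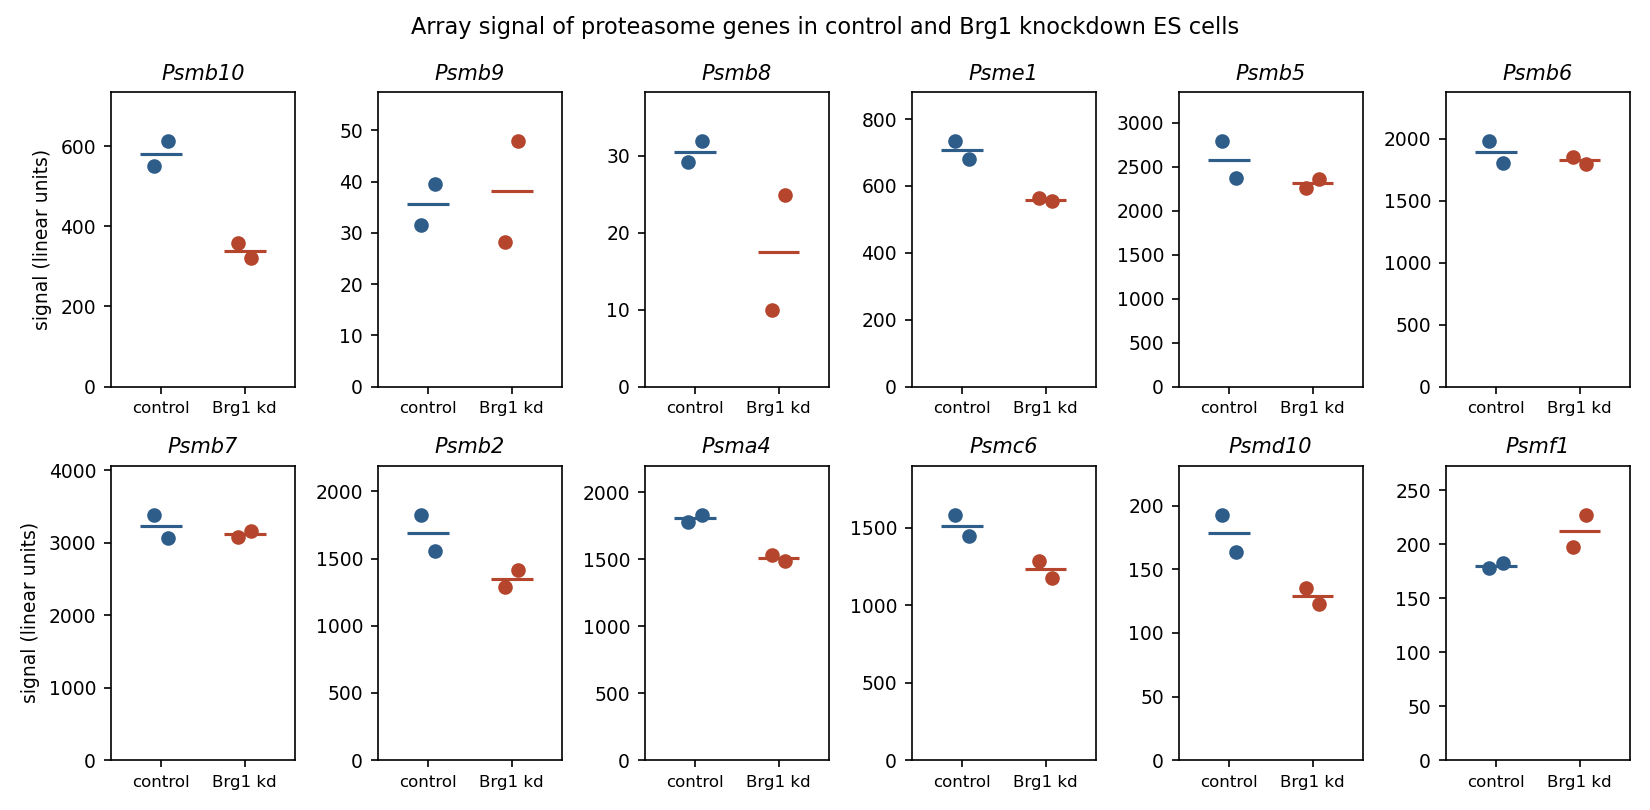
Each panel is 1 gene, with the signal in linear units on a vertical axis from 0 and the 2 groups on the horizontal axis. Points are single arrays and lines the group means. The groups lie apart, with the knockdown lower, for Psmb10, Psme1, Psmb2, Psma4, Psmc6 and Psmd10. For Psmf1 both knockdown points are the higher. Psmb5 and Psmb8 have both knockdown points lower, with the nearest points of the groups close together. The points overlap for Psmb9, Psmb6 and Psmb7.

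In the 20S core, 2 of 15 genes fell (13.3%, against 5.09% of all tested genes), 0 rose and 13 did not pass. The median was -0.09, and 14 of 15 were below 0, against 44.6% of all tested genes. In 9 of the 15 (against 25.9% of all) the knockdown arrays were both below the controls and in 1, Psma8, both above (6.67%, against 34.3%). The top quartile of signal holds 31 of the core and cap genes. Of all tested genes in that quartile, 53.7% were below 0, 34.0% were lower without overlap and 7.42% fell. The median of the core was -0.029 with quantile normalization, where Psma5, Psmb4, Psmb6 and Psmb7 were also above 0. It was -0.049 where the probe sets of a gene were averaged. Psma4, an alpha subunit, read 1533.2 and 1486.4 in the knockdown against 1779.7 and 1832.1 in the control. The duplicates lay close together and the groups apart. It fell by 0.26 ± 0.07 on the log2 scale (SE; adjusted p = 0.0408), or 1.19-fold, and did not pass once any single array was left out (adjusted p from 0.0713 to 0.175) and with the replicate block (0.0518).

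Psmb2, a beta subunit without a proteolytic site, read 1286.7 and 1413.1 in the knockdown against 1826.8 and 1558.7 in the control. The groups did not overlap, but control replicate 1 stood well above the other control. It fell by 0.32 ± 0.09 (SE; adjusted p = 0.0468), or 1.25-fold. Without control replicate 1 the difference was -0.21 (adjusted p = 0.226), and without knockdown replicate 1 it was -0.25 (0.14). With the spike-in scaling the differences of Psma4 and Psmb2 turned to 0.07 and 0.01.

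Among the other alpha genes the differences ran from -0.18 (Psma3) to 0.19 (Psma8). Psma8, an alpha subunit of germ cells, read 107.0 and 95.3 against 81.0 and 91.0 and did not pass (adjusted p = 0.359). Psma5 depended on its probe set. The brighter one read 1710.9 and 1932.6 against 2060.3 and 1621.7, with overlap and a difference of -0.01. The other read 1383.6 and 1284.1 against 1588.8 and 1688.7, with no overlap and -0.29 (adjusted p = 0.0556 in the fit of single probe sets).

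The remaining constitutive beta genes ran from -0.21 (Psmb1) to -0.05 (Psmb7), all below 0. Psmb1 read 1693.9 and 1436.6 against 1836.6 and 1772.5 (adjusted p = 0.142), and passed without knockdown replicate 1 (0.0409). Its dim probe sets had the opposite sign, at 0.22 and 0.18. Psmb3 was likewise split, with -0.07 from one probe set and 0.16 from another of similar signal.

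**Figure D4:**
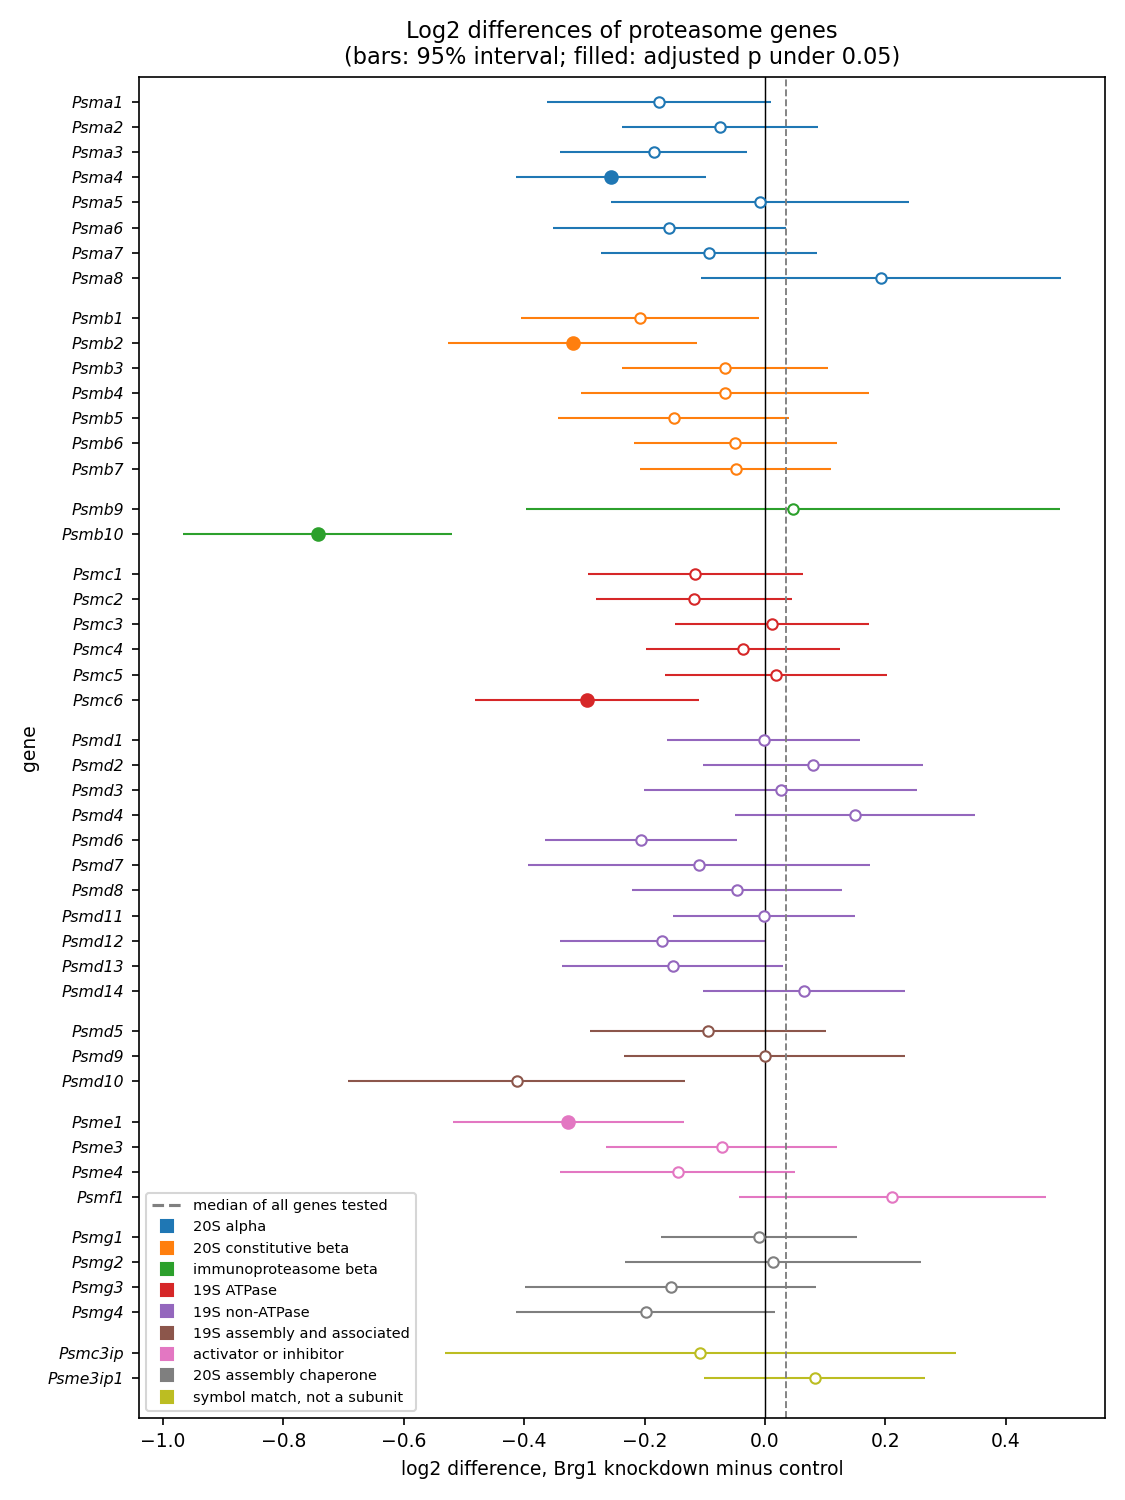
Each point is the log2 difference, knockdown minus control, of 1 of the 47 tested genes, coloured by class, with its 95% interval; filled points have an adjusted p under 0.05 and the dashed line is the median of all tested genes, 0.04. Psmb10 at -0.74 is separate from the other members, whose differences lie between -0.41 and 0.21.

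In the 19S cap, 1 of 17 genes fell (5.88%, close to the 5.09% of all tested genes), 0 rose and 16 did not pass. The median was -0.04, and 11 of the 17 (64.7%, against 44.6%, or 53.7% in the top quartile of signal) were below 0. In 7 (41.2%, against 25.9%, or 34.0% in that quartile) the knockdown arrays were both below the controls. In 0 they were both above, against 34.3%. Under quantile normalization the median of the cap was 0.03, so its sign depends on the scaling. No test was run of the core against the cap.

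Psmc6, 1 of the 6 ATPases of the ring that unfolds substrates, read 1286.2 and 1172.3 in the knockdown against 1583.1 and 1442.3 in the control. The groups did not overlap. It fell by 0.29 ± 0.08 (SE; adjusted p = 0.0432), or 1.23-fold. Its 2 dimmer probe sets gave -0.32 without overlap and -0.38 with overlapping groups (62.8 and 24.3 against 53.6 and 64.3). The call was lost with the mean of the 3 probe sets (adjusted p = 0.145) and with quantile normalization (0.0754). It no longer passed when knockdown replicate 2 (adjusted p = 0.213) or control replicate 1 (0.181) was left out, and with the spike-in scaling the difference was 0.03. The other ATPases ran from -0.12 (Psmc2) to 0.02 (Psmc5).

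No gene of the 11 in the non-ATPase part of the cap passed the test (limma; at an unadjusted p under 0.05, 1 was lower). Psmd6 was the lowest, at 1739.6 and 1694.1 against 2046.1 and 1922.2, a difference of -0.21 ± 0.07 (SE; adjusted p = 0.0837). Psmd4, a ubiquitin receptor, was the highest at 0.15 ± 0.09 (adjusted p = 0.284), with overlapping groups. A dim probe set of Psmd4 gave 0.37 with both knockdown arrays above both controls, and another gave -0.04 with overlap. Psmd14, the deubiquitinase of the cap, differed by 0.06 ± 0.08, and the scaffold subunits Psmd1 and Psmd2 by -0.00 ± 0.07 and 0.08 ± 0.08 (SE). Psmd11 had 6 tested probe sets with differences from -0.37 to 0.30, so no single direction describes it.

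Psmd10 (gankyrin), a chaperone of cap assembly, read 135.3 and 122.3 in the knockdown against 192.9 and 163.9 in the control. The groups did not overlap. Its difference of -0.41 ± 0.13 (SE) was next to that of Psmb10 in size but missed the threshold (adjusted p = 0.0548). It passed with median centring (0.031), quantile normalization (0.0432) and the replicate block (0.0495). It also passed where probe sets were averaged by gene (0.0373), although its own difference was unchanged there, as it has 1 probe set. It did not pass with no filter (limma, adjusted p = 0.126). Without 1 array its difference ran from -0.52 to -0.31. The other cap chaperones, Psmd5 and Psmd9, differed by -0.09 ± 0.09 and -0.00 ± 0.10. The core assembly chaperones Psmg1 to Psmg4 ran from -0.20 (Psmg4, 288.7 and 278.7 against 327.5 and 329.3; adjusted p = 0.191) to 0.01 (Psmg2). Psmc3ip, a meiotic recombination factor, and Psme3ip1, which binds Psme3, match the symbol rule without being subunits; neither passed (-0.11 and 0.08). Psmc3ip read 361.9 and 213.2 on the control arrays, and without control replicate 2 it was called at -0.46 (adjusted p = 0.0315).

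Fitted probe set by probe set, 75 of the 85 were tested and 1, that of Psmb10, fell (adjusted p = 0.00469), against 9.13% of all 13576 tested probe sets that changed either way and 3.37% that fell. None rose (0 of 75, limma), against 5.76%. In 31 the knockdown arrays were both below the controls and in 10 both above, against 27.8% and 30.6% of all tested probe sets. With several probe sets for 18 genes, the signs were alike in 7 and mixed in the other 11.

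The direction of the small shifts depends on how the arrays are scaled. The hybridisation spike-ins, control transcripts added to the labelled sample and not to the cells, had mean log2 signals of 9.44 and 9.14 in the knockdown, below the 9.67 and 9.57 of the controls. Scaling to them moved the median of all tested genes from 0.04 to 0.33 and that of the members from -0.07 to 0.25. With this scaling 0 of the 47 members were called, while of all 7820 tested genes 1413 rose and 30 fell. Of the members, 3 of 47 were below 0. Relative to the median of all genes, the members were lower by 0.11 on the deposited scale and with median centring, by 0.08 with the spike-ins and by 0.06 with quantile normalization.

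**Figure D5:**
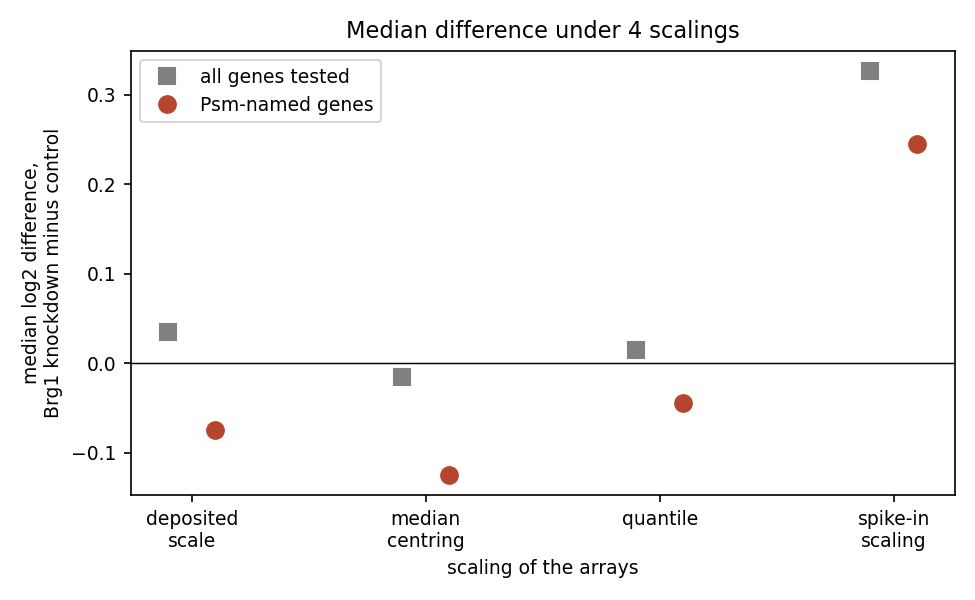
The vertical axis is the median log2 difference, knockdown minus control, of all tested genes (squares) and of the 47 Psm-named genes (circles), and the horizontal axis the scaling of the arrays. The circles lie below the squares under all 4 scalings, while their side of 0 changes with the spike-in scaling.

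Genes that act with the proteasome were taken from lists that do not use the Psm names, and each count is to be set against the 14.4% of all tested genes that changed; the lists are short. Of 16 tested parts and partners, 1 rose (6.25%), 0 fell and 15 did not pass (at an unadjusted p under 0.05, 2 were higher and 2 lower), with a median of -0.04. Zfand2a, a stress-induced proteasome-binding protein, rose by 0.42 ± 0.11 (SE; adjusted p = 0.0398), a call lost without each array in turn (adjusted p from 0.0654 to 0.143), with median centring (0.0522), with quantile normalization (0.0551), with no filter (0.0931) and with the mean of its probe sets (0.27, adjusted p = 0.188). Pomp, which matures the core, read 1195.5 and 1169.8 against 1382.9 and 1333.2 (-0.20, adjusted p = 0.104), and Usp14, a deubiquitinase on the cap, differed by -0.21 (0.122). Ubqln4, a shuttle for ubiquitinated proteins, differed by 0.28 (0.0799), and passed with the spike-in scaling (0.0352), the mean of its probe sets (0.0371) and without control replicate 2 (0.0192). The 4 measured genes of the ubiquitin and E1 list had 0 rises and 0 falls (limma; 1 lower at an unadjusted p under 0.05). They encode E1 enzymes, or subunits of them, for ubiquitin-like proteins, so the list did not cover ubiquitin or its own E1. The lowest was Nae1, a subunit of the NEDD8-activating enzyme (-0.27, adjusted p = 0.06; it passed with median centring at 0.0347 and without knockdown replicate 1 at 0.0439), and Uba7, Uba3 and Sae1 differed by 0.26, -0.02 and -0.02.

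Among 13 tested genes that bear on transcription of proteasome genes, 3 rose, 1 fell (30.8% in all) and 9 did not pass. Nfe2l1, the transcription factor that restores proteasome gene expression when the proteasome is inhibited, differed by -0.04 (adjusted p = 0.83), and Nfe2l2 by -0.08 (0.648); both were named after their values were seen. Ngly1, which removes glycans from NFE2L1, read 87.5 and 108.8 against 51.8 and 53.4 and rose by 0.70 ± 0.15 (SE; adjusted p = 0.014), a call lost without knockdown replicate 2 (0.0673) and with no filter (0.0689). Nfyc, a subunit of the CCAAT-binding factor NF-Y, rose by 0.52 ± 0.09 (adjusted p = 0.00523). Bach1, a repressor at antioxidant response elements, fell by 0.58 ± 0.12 (0.0131). Its adjusted p was 0.0581 without knockdown replicate 2, 0.0525 with no filter, 0.332 with the spike-in scaling (-0.29) and 0.127 with the mean of its probe sets (-0.34). Sel1l, of the ER degradation machinery, rose by 0.56 ± 0.16 (0.0429; 0.161 without knockdown replicate 2, 0.13 with no filter, 0.0696 with no intensity trend and 0.212, at 0.37, without control replicate 1).

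Of 14 tested genes of the p97 segregase, which extracts ubiquitinated proteins for the proteasome, 2 rose (14.3%), 0 fell and 12 did not pass (6 higher and 0 lower at an unadjusted p under 0.05; median 0.08). At that unadjusted p, 1497 of all 7815 tested genes were higher and 949 lower. In 7 of the 14 both knockdown arrays were above the controls and in 4 both below, against 34.3% and 25.9% of all tested genes. Vcp, the gene of p97 itself, had overlapping groups and differed by 0.03 (adjusted p = 0.829). It was named after its values were seen. The p97 cofactor Ubxn6 read 379.7 and 370.0 against 221.0 and 261.1 and rose by 0.60 ± 0.11 (SE; adjusted p = 0.00716). Ubxn2a rose by 0.44 ± 0.10 (0.0214), a call lost without knockdown replicate 1 (0.055), knockdown replicate 2 (0.0608) or control replicate 1 (0.0603), with no filter (0.0523) and with the mean of its probe sets (0.25, adjusted p = 0.188). Nploc4 and Ube4b differed by 0.29 (0.0657; 0.0425 with the spike-in scaling) and 0.24 (0.0967).

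Genes of MHC class I presentation, which the immunoproteasome supplies with peptides, moved both ways. Of 13 genes on the array 9 were tested, of which 2 rose, 1 fell (33.3% in all) and 6 did not pass, with a median of 0.14. Tap1 is the peptide transporter subunit whose gene lies next to Psmb9. Its signal was dim, at 51.5 and 46.4 in the knockdown against 26.4 and 27.7 in the control (filter at 23.9). The groups did not overlap, and it rose by 0.55 ± 0.16 (SE; adjusted p = 0.0463), but lost the call without each array in turn (adjusted p from 0.079 to 0.182), with median centring (0.0597) and with quantile normalization (0.0719). H2-K1, a class I heavy chain gene, fell by 0.34 ± 0.09 (adjusted p = 0.0279; 0.0564 to 0.0892 without each array in turn, -0.02 with the spike-in scaling, and adjusted p = 0.191 with its probe sets averaged). The probe set ends in _x_at, a type that may cross-hybridise. Calr, a chaperone of class I folding, rose by 0.29 ± 0.07 (0.024; 0.112 without knockdown replicate 2, 0.0681 without control replicate 1 and 0.061 with median centring). Canx differed by -0.12 (0.309). With no filter the calls of Tap1, H2-K1 and Calr were lost (limma, adjusted p = 0.123, 0.0586 and 0.0665). With no intensity trend those of H2-K1 and Calr were lost (0.075 and 0.106).

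In the interferon pathway 2 of 10 tested genes rose, 1 fell and 7 did not pass, with a median of 0.14. Irf1, a transcription factor known to induce the immunoproteasome genes, read 185.7 and 175.2 in the knockdown against 280.3 and 273.4 in the control. The knockdown arrays were both far below the controls, and it fell by 0.57 ± 0.10 (SE; adjusted p = 0.00761; 0.375 with the spike-in scaling). The kinase gene Jak1 rose by 0.67 ± 0.11 (0.00414). Jak2 rose by 0.69 ± 0.20 (0.0462), a call lost without knockdown replicate 1 (0.0705), knockdown replicate 2 (0.0717) or control replicate 2 (0.224) and with quantile normalization (0.0641). Its difference was 0.38 without control replicate 2 and 1.00 without control replicate 1. The Jak2 call was also lost with no filter (limma, adjusted p = 0.15) and with no intensity trend (0.0806). Irf9 differed by 0.51 (0.0566), and passed with the spike-in scaling (0.0125), no intensity trend (0.0336) and probe sets averaged by gene (0.0297). Of 6 markers of blood and immune cells on the array, 1 passed the filter, the lysosomal gene Cd68, which rose from 40.7 ± 5.66 to 102 ± 2.90 (SD, n = 2 each). The summed signal of the 6 was 148.2 and 198.4 in the knockdown against 87.3 and 81.3 in the control, and Ptprc, the defining gene of leukocytes, read 9.6 or less on every array. The summed signal of the 10 fibroblast markers was 127.4 and 137.6 against 121.9 and 116.6. Their part in the fall of Psmb10 was not tested.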

How the data were processed

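The deposited table holds linear signal intensities, 1 for each probe set on each array, made with the Affymetrix software GCOS per the submitters' processing notes. The GCOS version, signal algorithm and target level: not given in the sources used here. Trimmed by 2% at both ends, the mean signal of every array was 200.1, as after scaling to 1 level. Intensities from the deposited table were analysed as log2(signal + 20.01), the pseudocount being 10% of that mean, without further normalization. Each gene took its brightest probe set, one ending in _x_at only where no other existed. Genes whose mean log2(signal + 20.01) was under the 40th percentile of probe sets (23.9 signal units) were not tested. Groups were compared with limma 3.58.1 in R 4.3.3 (lmFit, eBayes with intensity trend, two-sided; all 4 arrays), and p-values adjusted by Benjamini-Hochberg over all genes tested. Folds are on this log2 scale and understate change in dim genes. A second fit took every probe set by itself. The code was tested on simulated data. Symbols came from the platform annotation, checked against RefSeq (GRCm38.p6); promoters came from RefSeq; another motif searched is not reported here.

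All member genes are accounted for; those that passed and the immunoproteasome genes with their counterparts have full values, other classes their extremes, and each pathway list up to 4 genes with the smallest p. Members and lists were chosen with earlier results of these data known. The labels give duplicate infections but do not say whether the cultures were separate, so p-values measure the spread between these arrays, and 2 arrays a group limit the precision. The alternatives were other pseudocounts, filters, normalizations, variance models, probe set rules and thresholds, the replicate number as a block, and leaving out each array.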

Additional observations from a re-analysis of the deposited data

How the results depend on the processing

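Of the members, Psmb10 kept its call under every alternative run but the spike-in scaling. Over all tested genes, 764 were called with no intensity trend, 1090 with quantile normalization and 1443 with the spike-in scaling. The 5 member genes called became 1 at an adjusted p under 0.01, 1 with no filter, 1 with no intensity trend, 3 with quantile normalization, 0 with the spike-in scaling (limma) and 25 by non-overlap of the arrays, and ranged from 1 to 6 without 1 array. The single member probe set called became 3 with the stricter filter, 6 with median centring, 2 with quantile normalization, 2 (both higher) with the spike-in scaling and 41 by non-overlap, and ranged from 1 to 6 without 1 array. The 1127 genes called in all became 393 at the stricter threshold, 433 with no filter and 4706 by non-overlap, and ranged from 601 to 1171 without 1 array; leaving out knockdown replicate 2 gave the 601, and leaving out control replicate 1 gave 719.

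The median difference of all members was -0.12 with median centring and 0.25 with the spike-in scaling, and ran from -0.14 to -0.038 without 1 array. That of the 20S core was 0.23 with the spike-in scaling and ran from -0.18 (without control replicate 2) to -0.022 (without control replicate 1). That of the 19S cap was -0.086 with median centring, 0.027 with quantile normalization and 0.29 with the spike-in scaling, and ran from -0.05 to -0.01. The spike-in scaling turned the falls of Psma4, Psmb2 and Psmc6 to 0.071, 0.0063 and 0.030. The cause was not tested.

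The replicate numbers do not pair the samples by any label, and the deviations of same-numbered arrays correlated at -0.14 over genes. With the replicate block, 5 member genes, 3 member probe sets and 1187 genes in all were called; a crossed block, chosen after seeing the data, gave 6, 5 and 1478. Of 53 named genes that did not pass, 43 changed sign under at least 1 alternative without passing. Over all 72 named genes, called or not, the spike-in scaling gave the most sign changes (39), those of Psma4, Psmb2 and Psmc6 included. Dim signals limit Psmb8 and Psmb9.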
